A study of Mus musculus with 4 samples.

Results

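Messenger RNAs of 9 genes that mark neurons of the cerebellum were followed in whole brain of SAMP8 and SAMR1 mice. The genes were listed by cell type, with Cbln1, Cbln3, En2, Zic1, Zic2 and Fat2 for granule cells and Pcp2, Car8 and Itpr1 for Purkinje cells. Every array probe whose transcript accession belonged to a listed gene was taken. This gave 14 of the 41174 probes and 8 of the 9 genes, and no probe was matched to Fat2, a large protocadherin of granule cell axons, which has no value here.

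The arrays compared 3 RNAs. They came from SAMP8 mice fed whale meat extract (WME), from SAMP8 mice fed the low-safflower oil control diet (LSO), and from SAMR1 mice fed LSO. SAMP8 is the senescence-accelerated strain and SAMR1 the resistant one. Both strains are labelled with an AKR/J background and a suspected outbreeding to an unknown line. The mice ate these diets for 26 weeks, starting when they were 24 weeks old. They were tested for behaviour at 49 weeks (8 days), and whole brain was taken at 50 weeks. A dye swap was made of each pair of RNAs, so that arrays 1 and 2 gave WME over LSO in SAMP8 and arrays 3 and 4 gave SAMP8 over SAMR1 on LSO. How many mice gave an RNA, or whether they were pooled, is not stated in the labels. Each group is 1 RNA, and no p-value can be had. The SAMP8 LSO group stands in both comparisons, so their values are set side by side and their likeness is not read as a result. The ± given with a ratio is the SD over both dye orientations. It includes the dye bias of the probe, which cancels in the mean.

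The cerebellum holds very many small granule cells, whose axons synapse on the large Purkinje cells, the output neurons of the cerebellar cortex. Cbln1 is secreted by granule cells and organises their synapses on Purkinje cells, and Cbln3 is its partner in the secreted complex. En2 and the Zic genes encode transcription factors of the granule cell lineage. Zic1 and Zic2 are also transcribed in other brain regions, and Itpr1 is most abundant in Purkinje cells but not restricted to them. In whole brain RNA, fewer cells of a type and less RNA per cell cannot be told apart.

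Promoter sequences are shown for the measured genes for which the RefSeq table held one, because these genes had diet ratios of the same sign. The table covered 4 of the 9 genes, Fat2 among them. Each sequence runs 5′ to 3′ over 300 bases, 250 before and 50 after the annotated start, on assembly GRCm38.p6. Capitals mark matches to CANNTG, the E-box read by bHLH factors such as Neurod1, and to AGGTCA, the core site read by the orphan receptor Rora. Both strands were searched, and the motifs did not overlap in these windows. The sequences lie on the minus strand, at chr14:55884207-55884506 for Cbln3, chr9:91365719-91366018 for Zic1 and chr8:3625498-3625797 for Pcp2, where 1 of 4 annotated starts is shown.
Cbln3: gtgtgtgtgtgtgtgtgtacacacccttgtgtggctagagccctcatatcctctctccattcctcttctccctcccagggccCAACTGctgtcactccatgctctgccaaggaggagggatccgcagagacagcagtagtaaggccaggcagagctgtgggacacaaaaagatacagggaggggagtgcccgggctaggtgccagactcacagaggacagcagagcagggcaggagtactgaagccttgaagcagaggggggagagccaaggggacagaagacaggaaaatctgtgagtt
Zic1: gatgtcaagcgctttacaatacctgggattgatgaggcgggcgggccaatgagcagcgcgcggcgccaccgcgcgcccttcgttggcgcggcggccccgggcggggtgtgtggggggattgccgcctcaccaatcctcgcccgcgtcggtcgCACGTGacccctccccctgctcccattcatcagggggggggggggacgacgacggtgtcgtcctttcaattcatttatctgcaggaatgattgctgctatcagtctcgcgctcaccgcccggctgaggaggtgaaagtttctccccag
Pcp2: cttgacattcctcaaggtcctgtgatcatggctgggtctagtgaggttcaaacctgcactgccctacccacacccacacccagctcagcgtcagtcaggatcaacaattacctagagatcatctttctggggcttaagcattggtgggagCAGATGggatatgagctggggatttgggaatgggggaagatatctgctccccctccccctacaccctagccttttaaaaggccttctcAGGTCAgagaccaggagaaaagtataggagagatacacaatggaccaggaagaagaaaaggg
Each window held 1 CANNTG match, a motif found in 72.3% of the 32851 promoters of the same length. An AGGTCA match lay in the Pcp2 window only among these 3, and in 16.3% of all promoters. The Zic1 window was GC-rich (65.3%, with 31 CpG), against 57.0% with 2 CpG for Cbln3 and 51.0% with 1 CpG for Pcp2. The medians over all promoters were 52.7% and 7 CpG. The letters say nothing of which factor binds.

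All 14 probes were well above background in every channel of the 4 arrays, as were the 10 pan-neuronal and 10 cerebral cortex genes read beside them in each RNA. Levels are given as log2 normalised intensity and are compared only within a probe. A gene is represented by its brightest probe unless another is named.

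In WME-fed SAMP8 brain all 8 measured genes were lower than in LSO-fed SAMP8 brain after intensity-dependent (loess) normalisation, whereas median centring of each array, which leaves a trend with brightness, put Zic2 and Itpr1 above 0 and the other 6 below. Median-centred signals already dye-normalised by the scanner software gave 8 of 8 below 0. The mean log2 ratios with loess lay between −0.29 and −0.04, which is 0.815-fold to 0.972-fold. Among genes, 7 of 8 were below 0 on both arrays, against 17.6% of the 26660 genes measured in this pair. Among probes, 12 of 14 were below 0 on both arrays and 14 of 14 in the mean. These were small differences, and 0 genes reached 1.5-fold on both arrays, against 0.03% of all genes in that direction. A smaller threshold was a log2 ratio of 0.202 in size. Past it and lower on both arrays was 1 gene, Cbln1, against 0.203%. On the mean of both arrays, a rule added after the values were seen, 6 genes were past it and lower, against 0.589%. In 6 of 8 genes, both WME channels lay below all 4 SAMP8 LSO channels, as in 5.84% of all genes.

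Cbln1 had 14.49 and 14.58 log2 units in the WME channels, against 14.85, 14.81, 14.77 and 14.88 in the SAMP8 LSO channels and 14.77 and 14.82 in the SAMR1 channels. The WME channels were the lowest of the 8 and overlapped neither other group, while SAMP8 LSO and SAMR1 overlapped. The Cbln1 ratio of WME over LSO was −0.35 and −0.24 on the 2 arrays, with a mean of −0.29 ± 0.08. Its second, dimmer probe gave −0.40 and −0.04, so the size depended on the probe on the array with WME in Cy3.

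Cbln3 had 9.88 and 9.92 in WME, against 10.24, 10.06, 10.11 and 10.21 in SAMP8 LSO and 10.13 and 10.07 in SAMR1. It followed the order of Cbln1, with WME apart from both other groups, which overlapped. The Cbln3 ratio was −0.36 and −0.15, with a mean of −0.25 ± 0.15, and a mean of −0.21 on its second probe.

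En2 had 12.43 and 12.52 in WME, against 12.78, 12.69, 12.70 and 12.79 in SAMP8 LSO and 12.62 and 12.49 in SAMR1. Here SAMP8 LSO was above both other groups with no overlap, and WME overlapped SAMR1. The En2 probe was printed in 10 spots on each array, which gives the error between spots. All 10 spots were below 0 on both diet arrays, with −0.34 ± 0.06 on array 1 and −0.19 ± 0.05 on array 2 (SD over spots, those marked as outliers included). The means of both arrays differed by more than the SD over spots, while the ranges of the spots overlapped.

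Zic1 had 15.08 and 14.95 in WME, against 15.11, 15.38, 15.35 and 15.20 in SAMP8 LSO and 14.92 and 15.12 in SAMR1. WME lay below SAMP8 LSO without overlap, and SAMR1 overlapped both. The ratio of Zic1 was −0.03 with WME in Cy5 and −0.43 with WME in Cy3, with a mean of −0.23 ± 0.28, so the size depended on the dye orientation. Its second probe showed the same pattern, −0.09 and −0.31, with a mean of −0.20.

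Zic2, the dimmest granule cell gene, had 9.28 and 9.41 in WME, against 9.33, 9.44, 9.36 and 9.35 in SAMP8 LSO and 9.33 and 9.64 in SAMR1. All 3 groups overlapped. The ratio of Zic2 was −0.05 and −0.04, within the technical spread, for which the 95th percentile over all genes was 0.0966 in size.

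**Figure D1:**
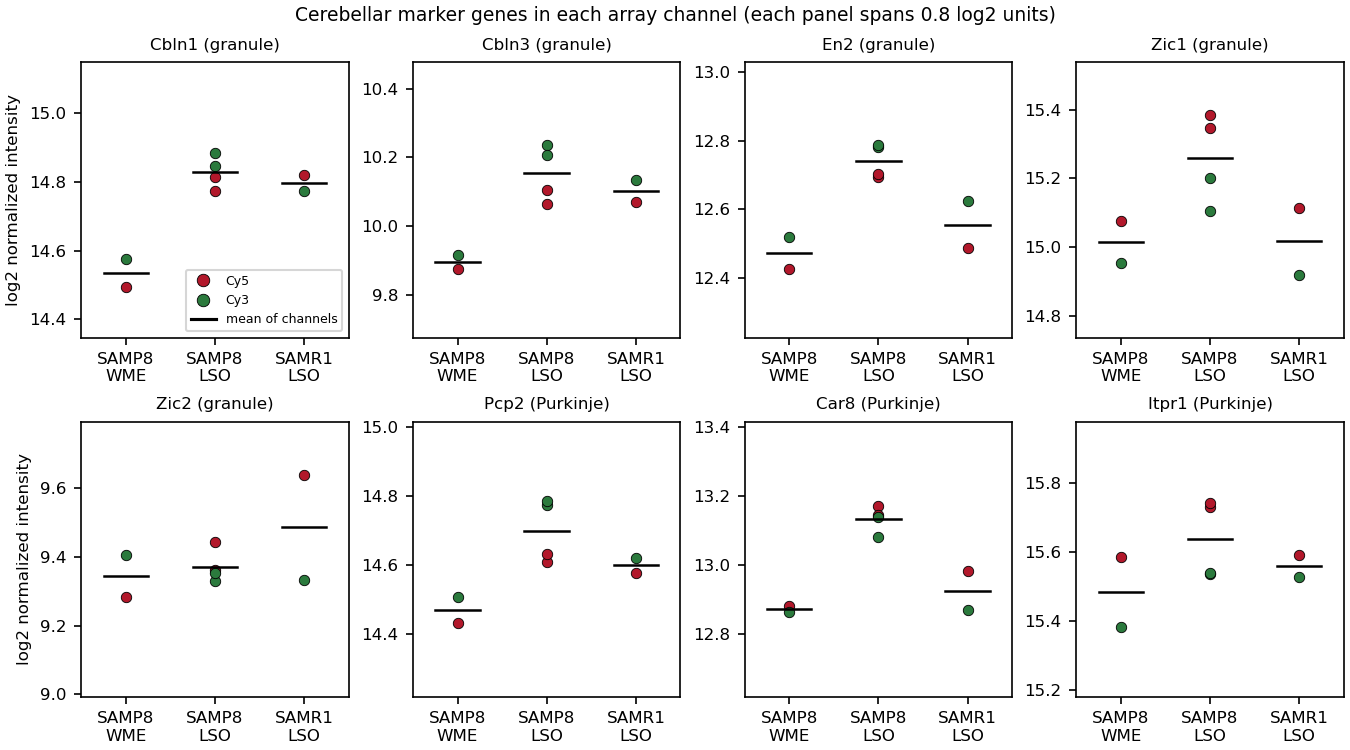
Log2 normalised intensity (vertical axis) of the brightest probe of 8 cerebellar genes in each array channel, by RNA (horizontal axis), with the dye in colour and the mean of the channels as a bar. The SAMP8 WME channels lie below all SAMP8 LSO channels in 6 panels, and overlap them for Zic2 and Itpr1.

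The Purkinje cell genes followed. Pcp2, a modulator of G protein signalling almost confined to Purkinje cells and retinal bipolar cells, had 14.43 and 14.51 in WME, against 14.77, 14.61, 14.63 and 14.79 in SAMP8 LSO and 14.62 and 14.58 in SAMR1. WME was below both other groups, and those overlapped. The ratio of Pcp2 was −0.34 and −0.10, with a mean of −0.22 ± 0.17, and the second probe had a mean of −0.21.

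Car8, a carbonic anhydrase-related protein that binds the Itpr1 receptor, had 12.88 and 12.86 in WME, against 13.08, 13.17, 13.15 and 13.14 in SAMP8 LSO and 12.87 and 12.98 in SAMR1. SAMP8 LSO stood above both other groups, and WME overlapped SAMR1, as for En2. The ratio of Car8 was −0.20 and −0.31, with a mean of −0.25 ± 0.08. Its second probe, far dimmer, gave 0.12 and −0.34, and its sign changed with the dye.

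Itpr1, the inositol trisphosphate receptor of the endoplasmic reticulum, had 15.59 and 15.38 in WME, against 15.54, 15.73, 15.74 and 15.54 in SAMP8 LSO and 15.53 and 15.59 in SAMR1. All groups overlapped. The ratio of Itpr1 was 0.05 and −0.35, with a mean of −0.15 ± 0.28, and −0.09 on the second probe.

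Granule and Purkinje cell genes were close in the diet pair. The median log2 ratio was −0.25 over the 5 granule cell genes and −0.22 over the 3 Purkinje cell genes, a difference of −0.03, beside a median of 0.0037 over all measured genes. With median centring the medians were −0.08 and −0.0022 and that of all measured genes was 0.0664. On array 1 alone the granule cell median was the lower by 0.151 and on array 2 alone it was the higher by 0.132, so the sign of the difference changed with the dye orientation. Genes of each class ranged more widely than the classes differed, with granule cell genes between −0.29 and −0.04 and Purkinje cell genes between −0.25 and −0.15.

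**Figure D2:**
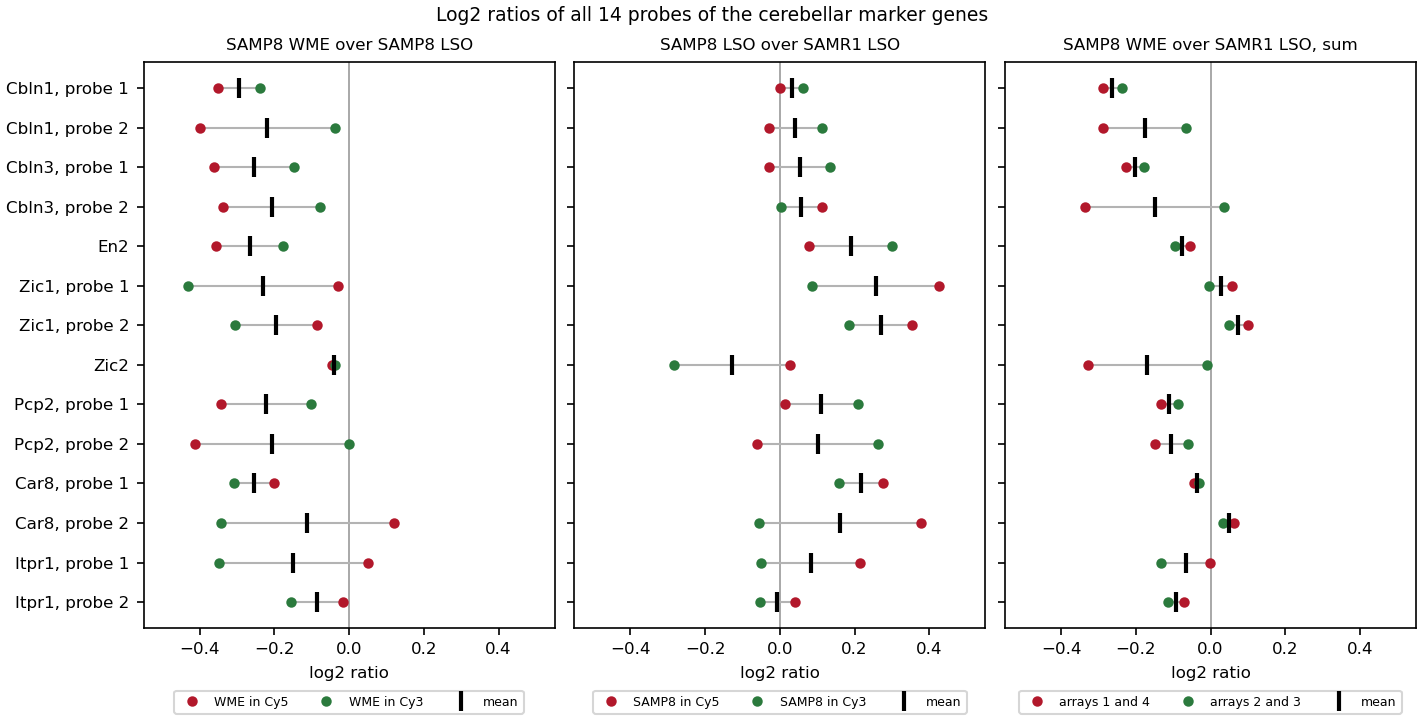
Log2 ratio (horizontal axes) of each of the 14 probes in both dye orientations (points) with their mean (bar), for WME over LSO, for SAMP8 over SAMR1, and for their sum in pairings of arrays with opposite dye orientation. With loess all 14 diet means lie below 0 and 12 of 14 strain means above 0, while median centring turned the diet means of Zic2 and Itpr1 and the strain means of Cbln1 and Itpr1 (brightest probes).

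Much of the gap between arrays of a pair recurred in the other pair. The dye term of a probe is the difference between its dye orientations divided by 2. Car8 probe 2 had dye terms of 0.23 in the diet pair and 0.22 in the strain pair, and Pcp2 probe 2 had −0.21 and −0.16. The difference of both dye terms, scaled to the error of a mean of 2 arrays, holds neither an RNA difference nor a constant dye bias. Its SD over 26391 genes was 0.0489. For the brightest probes it was largest in size for Zic2, at −0.11, and 0.05 or less in size for the other 7. The diet ratios of 7 of 8 genes were larger in size than the 95th percentile of this technical term over all genes, 0.0966, and Zic2 was not. The share of all genes with a diet ratio past that size was not taken. It cannot be read from the percentile, because the diet ratio over all genes had an SD of 0.0829, wider than the technical term. The technical term measures the arrays only and not the spread between mice.

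**Figure D3:**
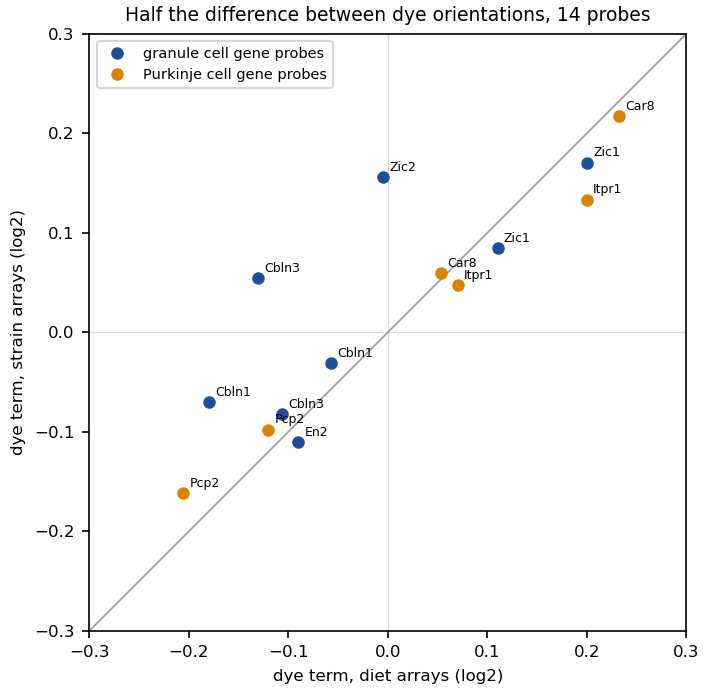
Dye term of each of the 14 probes in the strain arrays (vertical axis, log2) against the diet arrays (horizontal axis, log2), with granule cell probes in blue, Purkinje cell probes in orange and a line of equality. Most probes lie near the line, and Zic2 and the second probes of Cbln3 and Cbln1 lie farthest above it.

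In the strain comparison, 7 of 8 genes were higher in SAMP8 LSO brain than in SAMR1 LSO brain by the mean ratio, with Zic2 lower, while median centring left 5 above 0 and turned Cbln1 and Itpr1. The mean log2 ratios lay between −0.13 and 0.26. Above 0 on both arrays were 5 of 8 genes (Cbln1, En2, Zic1, Pcp2 and Car8), against 23.9% of 26936 measured genes. Past the smaller threshold and higher on both arrays were 0 of 8, against 3.78%, and on the mean of both arrays 2 of 8 (Zic1 and Car8), against 5.49%. At 1.5-fold there were 0 of 8, against 0.969%. In 2 of 8 genes, En2 and Car8, all SAMP8 LSO channels lay above both SAMR1 channels, as in 11.6% of all genes.

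The ratio of Zic1 was 0.43 and 0.09 on arrays 3 and 4, with a mean of 0.26 ± 0.24, and 0.27 on its second probe. Car8 had 0.28 and 0.16, with a mean of 0.22 ± 0.08. En2 had 0.08 and 0.30, with a mean of 0.19 ± 0.16, and its 10 spots were above 0 on both arrays. These 3 genes were the highest of the 8.

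Pcp2 had a mean of 0.11 ± 0.14. Itpr1 (0.08 ± 0.19), Cbln3 (0.05 ± 0.12) and Cbln1 (0.03 ± 0.04) were below the 95th percentile of the technical term. Cbln1 and Cbln3 thus had the strain ratios nearest 0, while their diet ratios were among the 4 lowest. Zic2 had 0.03 and −0.28, with a mean of −0.13 ± 0.22, which rests on array 4.

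The strain medians were 0.05 over the granule cell genes and 0.11 over the Purkinje cell genes, a difference of −0.06, beside −0.0067 over all genes. Median centring gave 0.03 and 0.0056, and the difference was then 0.02.

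The sum of the 2 ratios sets SAMP8 WME against SAMR1 LSO indirectly. It was below 0 for 7 of 8 genes and above 0 for Zic1 with loess, whereas with median centring it was below 0 for 3 and above 0 for 5. Cbln1 had the lowest sum at −0.26, followed by Cbln3 at −0.20 and Zic2 at −0.17. Pcp2 was at −0.11, and En2, Itpr1, Car8 and Zic1 lay between −0.08 and 0.03.

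Sums of arrays with the same dye orientation keep the dye bias, and 3 of 8 genes were below 0 in both (18% of 26391 genes) and 0 of 8 past the smaller threshold (1.94%). In sums of opposite orientation, where it cancels, 7 of 8 were below 0 in both, against 32.2% of all genes, and 1, Cbln1, was past the smaller threshold and lower in both, against 3.06%. On the mean of the sums, 1 gene was past it and lower, against 4.83%. In 3 of 8 genes, Cbln1, Cbln3 and Pcp2, both WME channels lay below both SAMR1 channels, as in 20.1% of all genes. The sum had a median of −0.17 over the granule cell genes and of −0.07 over the Purkinje cell genes. The difference of −0.10 kept its sign in each array left out and in each processing alternative run. It was smaller than its SD over dye orientations, 0.23, which includes dye bias. The granule cell median was the value of Zic2, whose strain ratio rests on 1 array. In 1 sum of opposite orientation the granule and Purkinje cell medians were −0.226 (Cbln3) and −0.043 (Car8). In the other they were −0.096 (En2) and −0.088 (Pcp2), so the size of the difference depended on the pairing of arrays.

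Other markers of the same cells were read in the same way. Of 12 further granule cell genes, 5 were below 0 on both diet arrays and 0 above, against 17.6% and 20.5% of all genes, with a median of −0.06 that was 0.00 with median centring. The lowest were Neurod1, a bHLH factor of granule cells (−0.25 ± 0.03), Gabra6, their GABA-A receptor subunit (−0.23 ± 0.12), and Grin2c, their NMDA receptor subunit (−0.23 ± 0.16). Pax6 was at −0.11 ± 0.14. In the strain pair 7 of 12 were above 0 and 2 below 0 on both arrays, against 23.9% and 26.7% of all genes, with Zic4 at 0.21, Grin2c at 0.17, Zic5 at 0.15 and Etv1 at −0.11. The strain median was 0.05, and 0.0061 with median centring.

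Of 18 measured further Purkinje cell genes, 13 were below 0 on both diet arrays and 0 above, against 17.6% and 20.5% of all genes, with a median of −0.10 that was 0.05 with median centring. Lhx1, a LIM homeobox factor (−0.28 ± 0.11), and Ppp1r17, a phosphatase inhibitor of Purkinje cells (−0.25 ± 0.03), were past the smaller threshold and lower on both arrays, as were 0.203% of all genes. Slc1a6, the Purkinje cell glutamate transporter, was at −0.23 ± 0.15 and Pvalb, a calcium-binding protein also of interneurons, at −0.15 ± 0.01. In the strain pair 12 of 18 were above 0 on both arrays and 0 below, against 23.9% and 26.7% of all genes, with Rora at 0.19 and Ppp1r17 and Lhx1 at 0.17. The strain median was 0.07, and 0.01 with median centring. With loess both further lists thus had medians nearer 0 than the 8 genes, and their lowest members had diet ratios like those of Cbln1 and Cbln3. With median centring the diet median of the further Purkinje cell genes, 0.05, lay farther from 0 than that of the 8 genes, −0.03.

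Related cerebellins and their binding partners were also read. Of 7 such genes, 1 was below 0 on both diet arrays and 3 above, against 17.6% and 20.5% of all genes, with a median of 0.03 that was 0.12 with median centring. Cbln4, a family member of forebrain and other regions, had 0.19 ± 0.05 in the diet pair and −0.15 ± 0.10 in the strain pair. Its diet ratio was of the opposite sign to that of Cbln1 under loess. Cbln2 was at −0.14 and Nrxn2 at 0.11 in the strain pair.

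Bergmann glia, the radial glia of the cerebellar cortex, had 5 listed genes with a diet median of −0.08, which was 0.15 with median centring. Gdf10, their growth factor, was at −0.18 ± 0.10 in the diet pair and at −0.16 ± 0.14 in the strain pair, and Fabp7, also of other glia, was at 0.32 ± 0.15 in the strain pair. The 7 measured genes of cerebellar interneurons, unipolar brush cells and nuclei had medians of −0.01 and 0.0003. Eomes, of unipolar brush cells but also of the olfactory bulb, was at −0.12 ± 0.01 in the diet pair, and Sorcs3 was at 0.11 ± 0.02 in the diet pair and −0.17 ± 0.04 in the strain pair.

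Markers of other regions were set beside these values. All 10 cerebral cortex genes had a diet mean above 0, and 7 were above 0 on both arrays, against 20.5% of all genes. Their median was 0.10, and 0.29 with median centring. Tbr1, a factor of deep layer neurons, was at 0.19 ± 0.05 in the diet pair and −0.30 ± 0.06 in the strain pair. In the strain pair 9 of 10 cortex genes had a mean below 0, and 6 were below 0 on both arrays, against 26.7% of all genes, with a median of −0.10.

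The median of the granule cell genes lay below that of the cortex genes by a log2 difference of −0.36 in the diet pair, both with loess and with median centring. For the Purkinje cell genes this difference was −0.33 with loess and −0.29 with median centring. In the strain pair the granule cell median lay above the cortex median by 0.16 with loess and 0.20 with median centring. The Purkinje cell median lay above it by 0.22 and 0.18. A shift shared by both lists cancels in such a difference, so likeness between the scalings is no separate support. With either array of a pair left out, the granule cell difference was −0.52 to −0.23 in the diet pair and 0.10 to 0.30 in the strain pair. The Purkinje cell difference was then −0.37 to −0.36 and 0.29 to 0.37. Neither range holds the loess value for both arrays, as medians over single arrays rested on other genes, so a narrow range here is no sign of precision.

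Olfactory bulb genes had medians of 0.10 in the diet pair and −0.13 in the strain pair, and 0.22 and −0.20 with median centring. On both arrays, 5 of 10 were above 0 and 1 below in the diet pair, against 20.5% and 17.6% of all genes, and 1 was above and 7 below in the strain pair, against 23.9% and 26.7%. Doc2g, a mitral and tufted cell gene, had the largest strain ratio at −0.40 ± 0.22. Striatal genes had medians of 0.02 and 0.08 with loess, but 0.20 and 0.04 with median centring. On both strain arrays 8 of 10 striatal genes were above 0 and 0 below, against 23.9% and 26.7% of all genes. The strain rise was thus not particular to the cerebellar genes. Strain medians with loess were 0.07 for thalamus, 0.06 for hypothalamus, 0.01 for hippocampus and 0.01 for brainstem genes. Pan-neuronal genes had medians of −0.0078 and 0.0014 with loess, but 0.21 and −0.11 with median centring. The summed log2 intensity of the pan-neuronal list was 18.79 to 18.82 in WME, against 18.72 to 18.84 in SAMP8 LSO and 18.79 to 18.82 in SAMR1. The same sum for the 8 cerebellar genes was 17.07 to 17.13 in WME, against 17.27 to 17.36 in SAMP8 LSO and 17.17 to 17.23 in SAMR1. The share of each region in an RNA was not measured, and its part in these ratios was not tested.

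**Figure D4:**
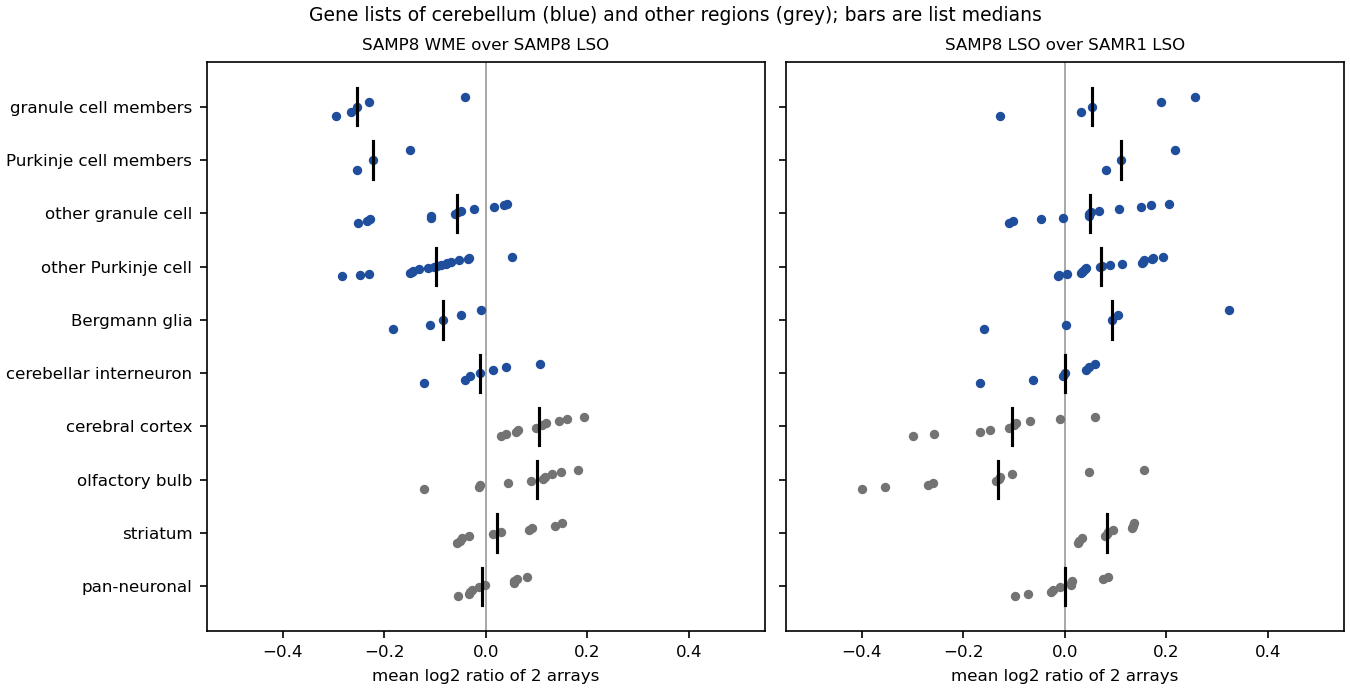
Mean log2 ratio (horizontal axes) of each gene in 6 lists of cerebellar cells (blue) and 4 other lists (grey), with list medians as bars, for WME over LSO and SAMP8 over SAMR1. With loess the cerebellar neuron lists lie left of the cortex and olfactory bulb lists in the diet panel and right of them in the strain panel, and median centring moved all 10 lists to the right in the diet panel.

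Blood cell genes also followed the direction of the cerebellar genes. Of 9 measured blood genes, 7 were below 0 on both diet arrays and 8 above 0 on both strain arrays, against 17.6% and 23.9% of all genes. The blood medians were −0.32 in the diet pair and 0.43 in the strain pair. Their size depended on the processing, with −0.58 and 0.80 at offset 0 and −1.20 and 1.03 with Feature Extraction processed signals. S100a9 and S100a8, of neutrophils, were past 1.5-fold in both pairs, at −1.09 and −0.80 in the diet pair. The summed log2 intensity of the blood list was 15.21 to 15.30 in WME, against 15.38 to 15.55 in SAMP8 LSO and 15.10 to 15.14 in SAMR1. All 9 were well above background in at least 1 channel of each RNA. Endothelial and mural genes had a diet median of −0.09 and a strain median of 0.40. Their summed log2 intensity was 14.76 to 14.82 in WME, against 14.83 to 14.98 in SAMP8 LSO and 14.51 to 14.56 in SAMR1. The endothelial and mural diet median was 0.07 with median centring. Astrocyte genes had medians of −0.10 in the diet pair and 0.04 in the strain pair, which median centring turned to 0.12 and −0.06. The part of these cells in the ratios of the cerebellar genes was not tested.

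Each gene was also set against genes of like brightness, a step added after the values were seen. It removes the trend with brightness, as loess does, so likeness between the scalings after it is given by construction and is no separate support. Within 0.5 log2 units of each gene lay 420 to 3080 measured genes. With median centring their median diet ratio was 0.09 to 0.22, so bright genes as a whole lay above 0. Relative to them, the 8 cerebellar genes were at −0.29 to −0.04 in the diet pair (8 of 8 below 0, median −0.24). In the strain pair 7 of 8 lay above the genes of like brightness, with a median of 0.10. Zic2 was the exception.

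**Figure D5:**
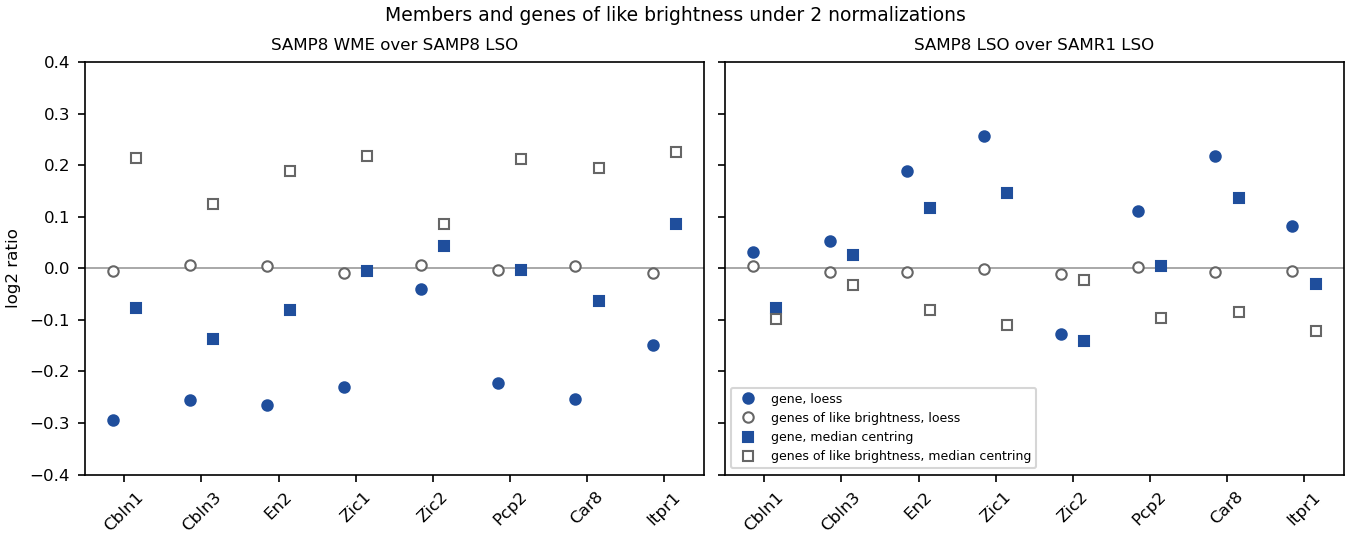
Log2 ratio (vertical axes) of the 8 cerebellar genes (filled) and the median of measured genes of like brightness (open), under loess (circles) and median centring (squares), for WME over LSO and SAMP8 over SAMR1. Zic2 and Itpr1 in the diet panel, and Cbln1 and Itpr1 in the strain panel, change sign between scalings, and in the diet panel the genes of like brightness lie above 0 with median centring.

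The genes outside all lists whose 4 array ratios lay nearest the median of the granule cell genes were Hnrnpdl, Slc16a11, Bbc3, Mboat1 and Nkx6-2. They were the nearest 5 of 9038 candidates, with Euclidean distances of 0.0979 to 0.138 over the 4 arrays. Among the cerebellar genes, Cbln1 (0.071) and Cbln3 (0.0802) were nearer to that median, which they helped to set, and Pcp2, a Purkinje cell gene, was at 0.145. Zic1 (0.573), Zic2 (0.4998) and Itpr1 (0.496) were the farthest, so the cell class did not order the genes by this measure.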

How the data were processed

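Total RNA of whole brain was labelled with Cy3 and Cy5 and read on 4 Agilent arrays of 1 slide. Spot intensities in the deposited files came from Agilent Feature Extraction (version 11.0.1.1, per the headers of these files). The log10 ratios in them were made by the authors' scanner software, per the file headers, and were not used. The deposited series table of log2 ratios matched the processed red over green signals of its array (largest difference 5e-09), unturned for dye, and its column medians were −0.0182, 0.0123, 0.00362 and 0.017.

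Median spot signals were corrected with normexp (offset 50) and normalised by loess within arrays and, for channel levels, between arrays on mean intensity, in limma 3.58.1 (R 4.3.3), control spots at weight 0. Outlier spots (105 to 123 an array) were left out, 0 of 43379 probe spots were saturated, and 81.4% to 85.6% were well above background (median signals 275 to 357, backgrounds 65 to 75.5). Spots of a probe were averaged, ratios turned for dye and averaged over both arrays of a pair, which are 1 replicate. Precision is limited by there being 4 arrays. A gene counted as measured when the same RNA was well above background on both arrays. Accessions named 23374 of 41174 probes through the RefSeq gene table, used for names only because the arrays name another build. With 1 RNA a group no test was run. Calls were at least 1.5-fold, or a log2 ratio of 0.202 in size, on both arrays, or the same sign, beside the share of all measured genes. Steps were tested on simulated scanner files.

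The members, lists and smaller fold were chosen with earlier results of these data known. Named were all listed cerebellar genes, of other lists up to 4 genes largest in size among those of the same sign on both arrays and any past 1.5-fold, and the 5 nearest genes. Not every gene that rule allows is printed, and some are not reported here. The shares of non-overlapping channels, the differences from the cortex list and the like-brightness step were added after values were seen. Alternatives were normexp with offset 0, no background correction, median centring, Feature Extraction processed signals, a stricter filter, the median of probes, outlier spots kept, and each array left out.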

Additional observations from a re-analysis of the deposited data

How the results depend on the processing

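Of 150 comparisons of a main count or median with an alternative, 127 moved by less than the spread over dye orientations or, for counts, by at most 1.5 times. Much of this tally was fixed in advance, so it does not measure stability. Leaving out 1 array moves the mean ratio of a single gene by less than this spread by construction, and the spread includes dye bias. For a median over genes this holds only while the same gene stays in the middle. The strain median of the Purkinje cell genes moved by more than its spread, 0.0409. The stricter filter could not move the members, which were above background in every channel, and counts past 1.5-fold were 0 in every setting. Medians near 0 still changed sign. With median centring the strain difference of the classes was 0.02 and the Purkinje cell median of the sum 0.05, and with 1 array left out the diet difference was −0.151 to 0.132. Median centring put the diet medians at −0.0764 for granule and −0.0022 for Purkinje cell genes, and the strain median of the Purkinje cell genes at 0.0056. The diet count past the smaller threshold on both arrays (1) was 2 with no background correction, 0 with median centring, 3 with Feature Extraction processed signals, 0 with the median of probes and 6 on the mean of both arrays. The strain count (0) was 2 with processed signals and 2 on the mean, and the count of the sum (0) was 1 on the mean and 1 in sums of opposite dyes. Leaving out an array, which leaves the other with its dye bias, gave counts of 4 in the diet pair, 3 in the strain pair and 0 to 2 in the sum. For these counts, and for those under other processing of signals or probes, the share of all genes was not taken. They are given only to show how the count depends on the rule. With 1 array left out, the Purkinje cell median was −0.308 to −0.201 in the diet pair and 0.158 to 0.216 in the strain pair. The strain range does not hold the value for both arrays, 0.11, as the middle gene of the 3 was not the same. The granule cell median was −0.352 to −0.176 in the diet pair. The strain difference of the classes was −0.188 to −0.072, a range that likewise does not hold the value for both arrays, −0.0577. The cause of these shifts was not tested. No paired analysis was possible because each pair of dye-swapped arrays holds 1 RNA a group. Spread between mice was not measured, and RNA, strain and diet cannot be told apart from the mice behind each RNA.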
